A study of Mus musculus with 20 samples.

Results

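Neurotensin and its receptors were followed in a forebrain region that belongs to the extended amygdala, the bed nucleus of the stria terminalis (anterodorsal division, adBNST), in unstressed mice and after chronic variable mild stress (CVMS). The members were chosen by name: Nts, which encodes the neurotensin precursor, the receptor genes Ntsr1 and Ntsr2, and Sort1, which encodes sortilin. All 4 had a row in the table, out of 12988 genes, and all 4 passed the filter on low counts. RNA was sequenced from 20 libraries, 5 in each of 4 groups of 15 mice: female control, female stressed (CVMS), male control and male stressed (CVMS). Mice were 7 to 9 weeks old when assigned to a condition, and no genotype or strain is named in the labels. Stressed mice went through 6 weeks of changing minor stressors, 1 or more each day, and their tissue was taken 1 hour after the last of them, wet bedding. Every mouse, controls included, was anaesthetised with ketamine before dissection, and the tissue of 3 mice was pooled for each library, so that a library averages over 3 animals.

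Neurotensin is a short peptide cut, together with neuromedin N, from a common precursor and released by neurons. NTSR1 and NTSR2 are G protein-coupled receptors; NTSR1 binds the peptide with high affinity and signals mainly through Gq and phospholipase C, and NTSR2 binds it with lower affinity and is known from astrocytes as well as neurons. Sortilin belongs to the Vps10p-domain family, binds neurotensin and pro-neurotrophins, and mostly works as a sorting receptor between the Golgi, endosomes and the cell surface. Neurotensin neurons of the bed nucleus and the central amygdala are GABAergic and are known from studies of feeding, fear and stress.

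Nts lies on chromosome 10 of the mouse genome (GRCm38, the assembly also called mm10, GENCODE M21), at chr10:102481756-102490486 on the minus strand, and has 4 exons. Ntsr1 lies at chr2:180499976-180544980 (plus strand), Ntsr2 at chr12:16653382-16660227 (plus strand) and Sort1 at chr3:108284082-108361511 (plus strand). No other annotated gene overlaps the first 3. Sort1 overlaps 1 antisense gene, Gm12523, and 1 gene on its own strand, Gm43099, both without a row in the table. The strand setting of the counting is not given in the sources used here, so reads of such overlaps could not be told apart.

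The DNA upstream of Nts is shown because the neurotensin promoter is known to hold elements for AP-1 (dimers of Fos and Jun proteins) and for CREB, whose genes were also measured. RefSeq windows (GRCm38.p6) were found for 3 of the 4 members, all but Sort1. The 182 bases at chr10:102490487-102490668 (minus strand, written 5′ to 3′), which end just upstream of the first base of the GENCODE gene, are given with motif matches in capitals:
Nts upstream: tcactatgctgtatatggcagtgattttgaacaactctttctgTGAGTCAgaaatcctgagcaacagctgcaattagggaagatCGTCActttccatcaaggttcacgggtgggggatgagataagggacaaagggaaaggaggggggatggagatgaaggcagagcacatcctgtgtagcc
The first capitals are the AP-1 motif TGACTCA read on the other strand (TGAGTCA), 207 to 201 bases upstream of the RefSeq start. The others are CGTCA, the core shared by cAMP response elements, 166 to 162 bases upstream. Both strands of the 250 bases upstream of each start were searched. Of 32851 such windows over all genes, 4.46% held TGACTCA, 17.8% held CGTCA and 1.55% held the full element TGACGTCA, which contains CGTCA. The full element was not matched in the Nts window. Since the motifs were chosen after this sequence was seen, the shares do not measure how unusual its matches are. In Ntsr1 CGTCA was matched once, and in Ntsr2 none of the 3 motifs was matched in this window. A match is a run of letters, not a measured binding site.

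Total counts per library ran from 2707881 in female control 4 to 33595388 in male stressed 4. The 40 pairs of libraries within groups differed by more than counting error (chi-square per degree of freedom 1.88 to 39.4). All 11 genes listed for GABA neurons and peptides of the bed nucleus were measured, with a summed level between 2813 and 3275 CPM (counts relative to the library's total, scaled with TMM factors). The most abundant genes weigh most in this sum, with Gad2 at 983 to 1248 CPM and Gad1 at 628 to 757 CPM. Peptide genes such as Tac2 (25.0 to 76.1 CPM), Npy (26.3 to 56.1 CPM) and Crh (11.4 to 25.7 CPM) add little to it and varied more. The sum therefore does not show whether the peptide genes were steady. Genes of striatal projection neurons, a neighbouring cell type, were also present (14 of 14), and their sum differed between libraries more than that of the bed nucleus genes. It ran from 2956 to 3734 CPM in male controls, from 3172 to 5720 in female controls, from 3102 to 6438 in stressed females and from 4207 to 6463 in stressed males, so that the male groups did not overlap. The part of these cells in the results was not tested. Fits below take a marker score as a covariate, but the striatal score differs between the groups themselves. For stress in males such a fit cannot tell striatal content and the effect of stress apart. The same holds in part for sex in controls, where the sums overlapped only at the low end of the female controls. Female stressed 2 stood apart with the highest sums of thalamic genes (395 CPM, 8 of 10 measured, against 216 to 368 elsewhere) and of hypothalamic and preoptic genes (84.0 CPM, against 23.0 to 56.7 elsewhere). Of the latter list only 5 of 12 genes had a row; Sim1, Avp, Hcrt, Pmch, Agrp, Pomc and Fezf1 had none.

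Per length of exon, Sort1 was the most abundant member, at 49.3 ± 4.58 CPM per kb (SD, n = 20 libraries), higher than 93.9% of the 12821 genes with an annotated length. Nts followed at 35.0 ± 6.17 CPM per kb and Ntsr2 at 31.3 ± 2.62, and these ranges overlapped (26.7 to 49.0 and 26.4 to 36.0). Ntsr1 was the lowest by far, at 2.56 ± 0.422 CPM per kb, higher than 20.1% of genes. On the CPM scale, the highest library exceeded the lowest 1.83-fold for Nts and 1.87-fold for Ntsr1, but only 1.36-fold for Ntsr2 and 1.36-fold for Sort1. Counts behind these values were smallest for Ntsr1, with 26 to 368 per library, against 92 to 1450 for Nts, 298 to 3428 for Ntsr2 and 1152 to 12068 for Sort1.

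**Figure D1:**
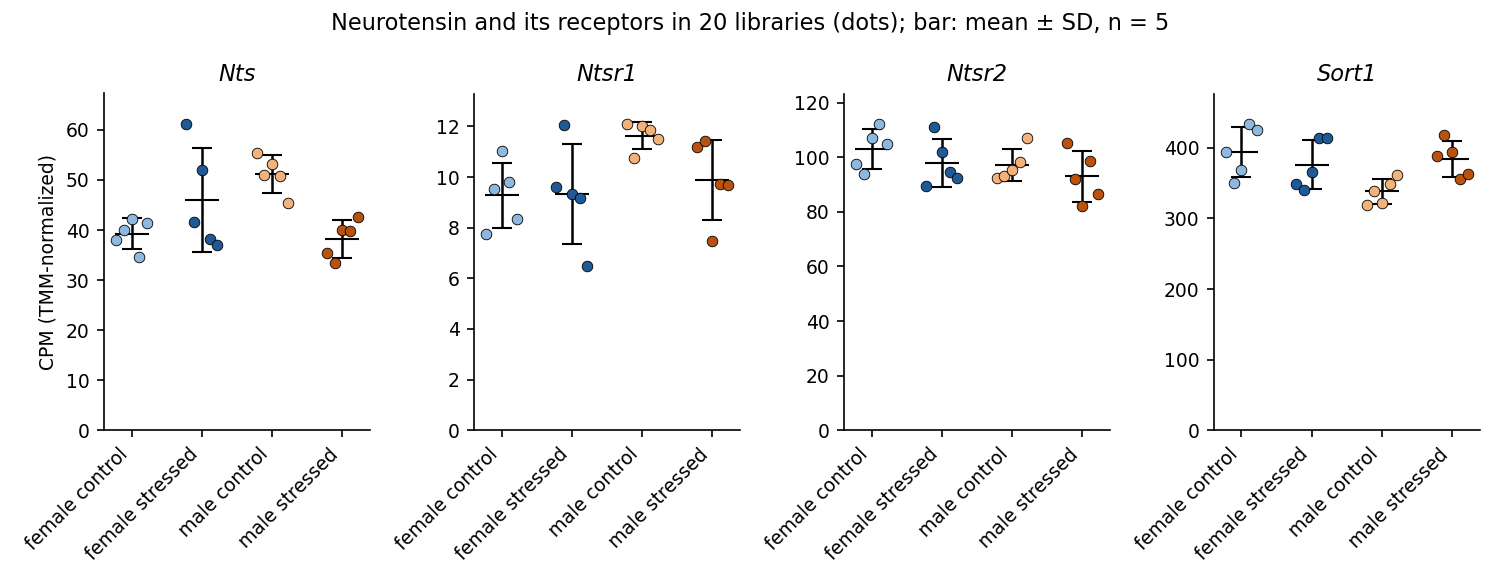
Level of each gene in CPM (vertical axis, from 0) in the 4 groups (horizontal axis); each dot is 1 library of 3 pooled mice, the bar is the mean ± SD of 5. Nts in male controls (45.3 to 55.4 CPM) lies above both female controls and stressed males, and Sort1 in male controls has the lowest mean of its 4 groups.

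Each gene was tested with edgeR's quasi-likelihood test in 1 model of the 4 groups, with Benjamini-Hochberg adjustment over all 12988 genes, separately for each contrast. Genes are named as called below an adjusted p of 0.05. Differences are log2 fold changes with their SE. None of the 4 members was called in any of the 6 contrasts. Over the whole table, 0% of genes were called for stress in females, 0.0077% for stress in males, 0.747% for sex in controls, 0.077% for sex in stressed mice, 0% for the sex by stress interaction and 0% for stress averaged over the sexes. At an unadjusted p under 0.05 there were 0 of 4 members for stress in females (7.51% of all genes), 2 for stress in males (15.5%), 3 for sex in controls (15.3%), 1 for sex in stressed mice (7.06%), 2 for the interaction (10.4%) and 0 for averaged stress (12.7%). The contrasts share groups: the male controls enter the male stress effect, the sex difference in controls and the interaction.

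**Figure D2:**
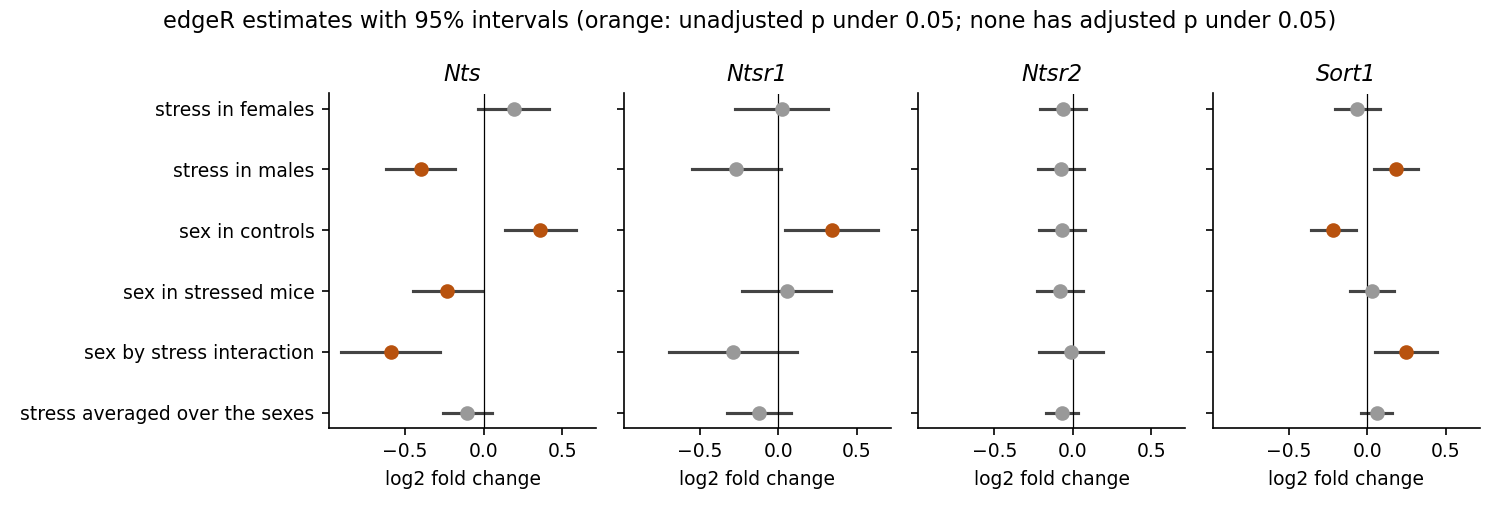
Log2 fold change (horizontal axis) with its 95% interval for each contrast (rows) and gene (panels), from the edgeR fit of all 20 libraries; orange points have an unadjusted p under 0.05. Nts and Sort1 lie on opposite sides of 0 in every contrast shown, and the intervals of Ntsr2 include 0 in all 6.

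The ligand gene Nts was highest in male controls. In replicates 1 to 5 it stood at 55.4, 51.0, 53.2, 50.8 and 45.3 CPM, a mean of 51.1 ± 3.75 (SD, n = 5). In stressed males it stood at 35.4, 33.4, 40.1, 39.9 and 42.7 CPM, a mean of 38.3 ± 3.79. Every stressed male library lay below every male control library, a separation in this direction that 1.16% of all genes showed.

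Female controls had Nts at 37.9, 40.1, 42.3, 34.6 and 41.3 CPM, a mean of 39.3 ± 3.06 (SD, n = 5), all below the male controls. Separation in that direction was found for 1.95% of genes. In stressed females it stood at 61.2, 41.5, 52.0, 38.1 and 37.1 CPM, a mean of 46.0 ± 10.3. That group was the widest, with a coefficient of variation of 22.5% against 7.34% to 9.91% in the others. Its libraries 1 and 3 lay above all female controls, and the others within their range.

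By mean, the order of the groups for Nts was male control, female stressed, female control and male stressed. Neighbours in this order overlapped in each case: stressed females spanned the range of the male controls, and the female controls (34.6 to 42.3 CPM) lay within the range of the stressed males (33.4 to 42.7 CPM).

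For stress in males, the Nts difference was -0.40 (SE 0.11, 95% interval -0.62 to -0.18, a fold of 0.758), with an unadjusted p of 0.000994 that ranked 140 of 12988 genes and an edgeR adjusted p of 0.0907. It stayed negative, from -0.45 to -0.36, with each library left out, and the edgeR adjusted p then ran from 0.0514 to 0.277. DESeq2 gave an adjusted p of 0.0258, and edgeR on the male groups alone 0.0211. Those fits called 239 and 303 of 12988 genes, against 1 in the edgeR fit of all groups. With the striatal marker score of each library as a covariate, the Nts difference was -0.28 (SE 0.12, edgeR adjusted p 0.785). Benjamini-Hochberg adjustment can give many genes the same value, and 0.785 recurs below for Pcsk2, Arrb2 and Sorcs3 in that fit.

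For stress in females, the Nts difference was 0.19 (SE 0.11, 95% interval -0.03 to 0.42, edgeR adjusted p 0.712). Without female stressed 1, its highest library, it was 0.08. The male minus the female stress effect, the interaction, was -0.59 (SE 0.15, 95% interval -0.91 to -0.28), with an unadjusted p of 0.000745, which ranked 32 of 12988 genes, and an edgeR adjusted p of 0.261. The edgeR adjusted p was 0.0381 with the septal score as a covariate and 0.302 with the striatal score, where the difference was -0.68 and -0.47; DESeq2 gave 0.0531. With the septal score 46 of 12988 genes were called for the interaction, against 0 without a covariate.

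Between control males and control females, Nts differed by 0.36 (SE 0.11, 95% interval 0.13 to 0.59, a fold of 1.28; unadjusted p 0.00317, edgeR adjusted p 0.115). In a fit of only the control groups the edgeR adjusted p was 0.0120, and 304 of 12988 genes were called, against 97 in the fit of all groups. With the striatal score as a covariate the difference was 0.26 (SE 0.12, edgeR adjusted p 0.378). Between stressed males and stressed females it was -0.23 (SE 0.11, edgeR adjusted p 0.678), or -0.12 without female stressed 1.

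Ntsr1, the high-affinity receptor, was also highest in male controls, where it varied least. There it stood at 12.09, 10.76, 12.01, 11.84 and 11.51 CPM, a mean of 11.6 ± 0.540 (SD, n = 5). In stressed males it stood at 11.2, 11.4, 7.47, 9.74 and 9.68 CPM, a mean of 9.90 ± 1.58. All 5 stressed libraries lay below the male control mean, and 3 of them below the lowest male control.

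In female controls Ntsr1 stood at 7.74, 9.55, 11.02, 9.79 and 8.34 CPM, a mean of 9.29 ± 1.29. In stressed females it stood at 9.61, 12.1, 9.33, 9.17 and 6.48 CPM, a mean of 9.33 ± 1.98. The order by mean was male control, male stressed, female stressed and female control, and the last 3 overlapped over most of their ranges. Only 1 female control library reached the range of the male controls.

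Ntsr1 differed by 0.34 between control males and females (SE 0.14, 95% interval 0.05 to 0.64, unadjusted p 0.0258, edgeR adjusted p 0.250) and by -0.27 with stress in males (SE 0.14, 95% interval -0.55 to 0.01, edgeR adjusted p 0.354). With the striatal score as a covariate these were 0.05 (SE 0.11) and 0.09 (SE 0.11), so the direction of the second turned; without male stressed 3 the second was -0.17. With the astrocyte score as a covariate the sex difference in controls was 0.46 (SE 0.09, edgeR adjusted p 0.00348). That fit called 990 of 12988 genes for sex in controls, against 97 without a covariate. The stress effect in females was 0.02 (SE 0.14), and without female stressed 2, the library with the most thalamic and hypothalamic RNA, it was -0.12. The interaction was -0.29 (SE 0.20, 95% interval -0.70 to 0.12, edgeR adjusted p 0.632), or -0.15 without female stressed 2 and 0.043 with the striatal score.

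Ntsr2, the low-affinity receptor, differed little between groups. Female controls stood at 97.4, 93.9, 107, 112 and 105 CPM, a mean of 103 ± 7.39 (SD, n = 5). Stressed females stood at 89.4, 111, 102, 94.8 and 92.3 CPM, a mean of 97.9 ± 8.74. Male controls stood at 92.3, 93.2, 95.3, 98.2 and 107 CPM, a mean of 97.2 ± 6.00. Stressed males stood at 105, 92.0, 82.3, 98.7 and 86.7 CPM, a mean of 93.0 ± 9.21. All 4 groups overlapped.

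The Ntsr2 stress effect was -0.06 in females (SE 0.07, 95% interval -0.21 to 0.09) and -0.07 in males (SE 0.07, 95% interval -0.22 to 0.07). Averaged over the sexes it was -0.07 (SE 0.05, 95% interval -0.17 to 0.04, edgeR adjusted p 0.594), so the interval does not reach a fall of more than 0.17 or a rise of more than 0.04 on the log2 scale. The sex difference was -0.07 in controls (SE 0.07) and -0.08 in stressed mice (SE 0.07), and the interaction was -0.01 (SE 0.10, 95% interval -0.22 to 0.19). With the astrocyte score as a covariate the sex difference in controls was 0.005 (SE 0.05).

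Sort1 was lowest in male controls. These stood at 320, 339, 322, 349 and 362 CPM, a mean of 338 ± 17.8 (SD, n = 5). Stressed males stood at 389, 418, 394, 356 and 362 CPM, a mean of 384 ± 25.2. Of the 5 stressed male libraries, 4 lay above every male control and all 5 above the male control mean.

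In female controls Sort1 stood at 394, 350, 369, 434 and 426 CPM, a mean of 395 ± 35.6, and 4 of the 5 male controls lay below the lowest of them. In stressed females it stood at 348, 340, 366, 413 and 414 CPM, a mean of 376 ± 35.3. The order by mean was female control, male stressed, female stressed and male control; the first 3 overlapped over most of their ranges.

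For Sort1 the sex difference in controls was -0.22 (SE 0.07, 95% interval -0.36 to -0.08, unadjusted p 0.00433, edgeR adjusted p 0.124) and the stress effect in males 0.18 (SE 0.07, 95% interval 0.04 to 0.32, unadjusted p 0.0142, edgeR adjusted p 0.195). With the striatal score as a covariate they were -0.08 (SE 0.06) and 0.03 (SE 0.06). With the septal score they were -0.26 (edgeR adjusted p 0.00860) and 0.21 (edgeR adjusted p 0.0249). In that fit 463 and 529 of 12988 genes were called in these contrasts, against 97 and 1 without a covariate. The stress effect in females was -0.06 (SE 0.07), the interaction 0.25 (SE 0.10, 95% interval 0.05 to 0.44, edgeR adjusted p 0.389; 0.10 with the striatal score), and the sex difference in stressed mice 0.03 (SE 0.07).

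**Figure D3:**
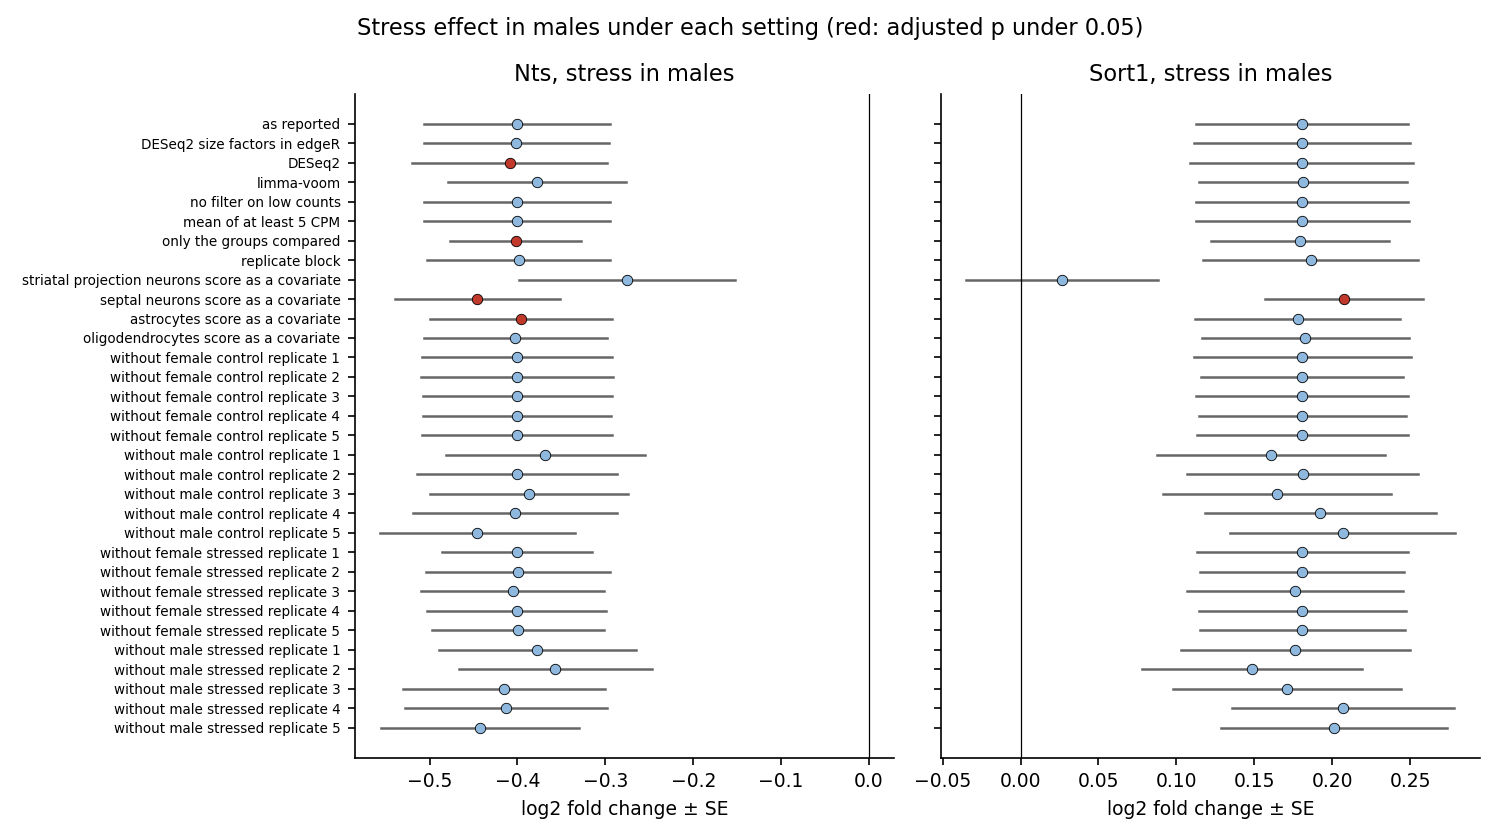
Stress effect in males (log2 fold change ± SE, horizontal axis) of Nts and Sort1 as reported and under each of 31 other settings (rows); red points have an adjusted p under 0.05. Nts stays below 0 in all of them and lies nearest to 0 (-0.28) with the striatal score as a covariate, which also brings Sort1 to 0.03.

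Across the 20 libraries, members of the family varied with each other and with marker genes of the cells around them. Pearson's r and Spearman's rho were computed on log2 CPM for 42 relations (6 pairs of members, and each member with 9 marker scores), with permutation p-values and Benjamini-Hochberg adjustment across those 42. The permutations shuffled all 20 libraries without regard to group, so differences between group means enter these p-values. No p-value was computed for an r within groups. A score is the mean log2 CPM of a marker list, with each gene centred over the libraries. In such bulk tissue, fewer cells of a type and less RNA per cell cannot be told apart.

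Nts and Sort1 ran opposite to each other. Their r was -0.767 (permutation p 0.0001, adjusted 0.00077) and their rho -0.788 (permutation p 0.00013, adjusted 0.00109). Without the 2 libraries farthest from the median of Nts r was -0.754, and within groups, after centring each on its mean, it was -0.644. Ntsr1 and Sort1 also ran opposite (r -0.582, permutation p 0.00724, adjusted 0.0234; rho -0.589, permutation p 0.00787, adjusted 0.0254), with r -0.532 without the 2 farthest libraries and -0.396 within groups. For the other 4 pairs the adjusted permutation p was at least 0.248, and Nts with Ntsr1 had an r of 0.333 (permutation p 0.153, rho 0.347, permutation p 0.136).

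Sort1 rose and Ntsr1 fell with the striatal score. For Sort1 r was 0.820 (permutation p 2e-05, adjusted 0.00028) and rho 0.836 (permutation p 1e-05, the smallest these permutations can give). For Ntsr1 r was -0.849 (permutation p 2e-05, adjusted 0.00028) and rho -0.838 (permutation p 1e-05). Within groups these r were 0.735 and -0.806, and without the 2 farthest libraries 0.819 and -0.793. Nts was related to the same score more weakly, with r -0.581 (permutation p 0.00784, adjusted 0.0235), rho -0.690 (permutation p 0.00111) and a within-group r of -0.359.

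Nts and Sort1 were related in opposite directions to the endothelial score as well. For Nts r was -0.685 (permutation p 0.00078, adjusted 0.00328) and rho -0.620 (permutation p 0.00411), with -0.639 without the 2 farthest libraries and -0.466 within groups. For Sort1 r was 0.702 (permutation p 0.00051, adjusted 0.00238) and rho 0.768 (permutation p 7e-05), with 0.641 and 0.507 in the same order. Sort1 was also related to the microglia score (r 0.633, permutation p 0.00255, adjusted 0.00974; rho 0.609, permutation p 0.00472), with 0.432 and 0.446.

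Ntsr2 followed the astrocyte score, built from 12 genes such as Aqp4, the astrocyte water channel, and Gja1, a gap junction protein. Its r was 0.832 (permutation p 2e-05, adjusted 0.00028) and its rho 0.774 (permutation p 0.0001, adjusted 0.00105), with 0.856 without the 2 farthest libraries and 0.822 within groups. Ntsr1 was less closely related to the astrocyte score over all libraries (r 0.536, permutation p 0.0148, adjusted 0.0414). Its rho was 0.317 (permutation p 0.173), and its r was 0.272 without the 2 farthest libraries but 0.841 within groups. The summed astrocyte markers ran from 5464 to 5556 CPM in male controls, 5710 to 5996 in stressed males, 5723 to 6391 in female controls and 5496 to 5889 in stressed females. Ntsr2 also rose with the oligodendrocyte (r 0.729, permutation p 0.00033; rho 0.636, permutation p 0.00307) and the thalamic score (r 0.794, permutation p 3e-05; rho 0.696, permutation p 0.00096), so the relation was not particular to astrocyte genes. Both receptor genes rose with the hypothalamic and preoptic score. For Ntsr1 r was 0.741 (permutation p 0.00016) and rho 0.753 (permutation p 0.00021), with 0.670 without the 2 farthest libraries and 0.778 within groups. For Ntsr2 r was 0.745 (permutation p 0.00011) and rho 0.707 (permutation p 0.00057), with 0.578 and 0.799. Ntsr1 was also related to the bed nucleus score (r 0.633, permutation p 0.00284, adjusted 0.00994), with 0.399 and 0.497. There its rho was 0.483 (permutation p 0.0336, adjusted 0.0941). The septal score, chosen because the neighbouring lateral septum is known to hold Nts neurons, had an r of 0.263 with Nts (permutation p 0.261; rho 0.347, permutation p 0.134), and 0.567 within groups. With Sort1 the septal score had an r of -0.470 (permutation p 0.0381, adjusted 0.0941) and a rho of -0.445 (permutation p 0.0516). Within groups that r was -0.772.

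**Figure D4:**
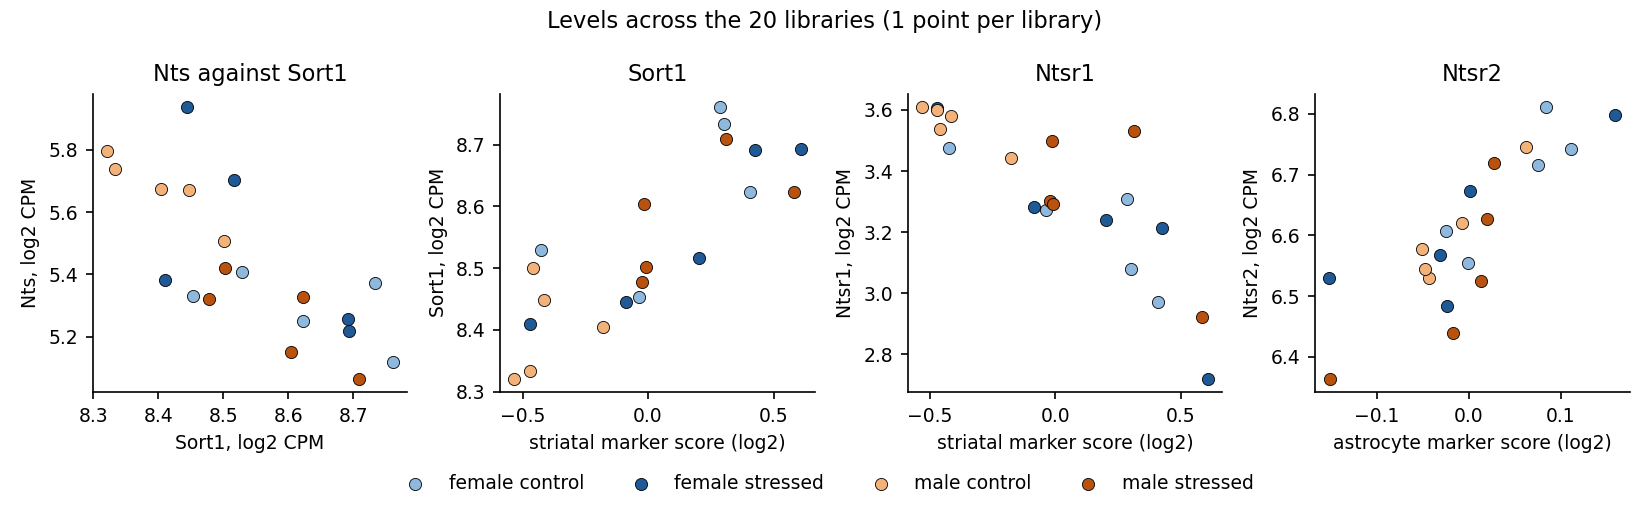
Log2 CPM of each gene (vertical axes) in the 20 libraries, against Sort1 or a marker score (horizontal axes); each point is 1 library, coloured by group. Nts falls as Sort1 rises (r -0.767), Sort1 rises (r 0.820) and Ntsr1 falls (r -0.849) with the striatal score, and Ntsr2 rises with the astrocyte score (r 0.832).

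The genes most like each member over the 20 libraries were taken as those with the highest Pearson r among all 12988, as a description without a test, since they were chosen for it. For Nts these were Mrps18c (r 0.786), a mitochondrial ribosomal protein gene, Tmem29 (r 0.784) and Fbl (r 0.780), which encodes the nucleolar protein fibrillarin. No gene reached an r of 0.8 with Nts. For Ntsr1 they were AW551984 (r 0.937), Irs4 (r 0.923), an insulin receptor substrate, and Grb10 (r 0.921), a receptor adaptor, among 129 genes over 0.8. For Ntsr2 they were Ina (r 0.857), a neuronal intermediate filament gene, Ndrg2 (r 0.855), known from astrocytes, and Phyhipl (r 0.855), among 24 genes. For Sort1 they were Gpd1 (r 0.949), a glycerol phosphate dehydrogenase, Rab6b (r 0.945), a Golgi transport GTPase, and Rgs7bp (r 0.941), among 270 genes. Within groups these 12 r were between 0.690 and 0.937.

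Around the members, 4 lists of pathway genes were described. The first holds genes of neuropeptide processing, with convertases and their inhibitor and chaperone, carboxypeptidases and the amidating enzyme, and of peptide breakdown; 15 of 16 were measured. For stress, 0 of 15 were called in either sex; at an unadjusted p under 0.05 there were 0 in females (7.51% of all genes), and 1 higher and 1 lower in males (15.5%). Pcsk2, the prohormone convertase of mature secretory granules, differed by 0.41 with stress in males (SE 0.09, edgeR adjusted p 0.0871) and by 0.01 in females (SE 0.09). In males it was 0.15 with the striatal score as a covariate (edgeR adjusted p 0.785), and it was called under 6 other settings, with adjusted p down to 0.0126 (septal score). The septal score gave 529 calls over the whole table for stress in males. Pcsk1, the other neuronal convertase, differed by -0.23 in males (SE 0.17) and by -0.15 in females (SE 0.18). With the striatal score the Pcsk1 value in males turned to 0.23, and without male stressed 3 it was -0.13. In females it was -0.40 without female stressed 2 and -0.016 without female control 3. Thop1 and Nln, whose peptidases degrade neurotensin, differed by 0.07 and 0.09 in males and by 0.05 and -0.01 in females, and neither was called. Npepps, an aminopeptidase gene, had the smallest p of the list for stress in females (-0.07, SE 0.05, edgeR adjusted p 0.737), and Pcsk2 that for the interaction (0.39, SE 0.13, edgeR adjusted p 0.348; 0.16 with the striatal score).

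In controls Pcsk2 was the 1 gene of this list called for sex, at a share of 0.747% of all genes. It averaged 160 ± 11.4 CPM in males (142 to 171) and 214 ± 25.8 CPM in females (183 to 238), a difference of -0.42 (SE 0.10, edgeR adjusted p 0.0400), and these groups did not overlap (3.97% of all genes, counting both directions). The list median was -0.08, against 0.00 over all genes. The call was lost with limma-voom (adjusted p 0.0528), and without any 1 of female control 1, 4 or 5, the 5 male controls, female stressed 3 or male stressed 1 (edgeR adjusted p 0.0507 to 0.136). With the striatal score as a covariate the Pcsk2 difference was -0.19 (edgeR adjusted p 0.256).

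The second list holds genes of Gq and phospholipase C signalling and of receptor desensitisation, 20 of 21 measured. With stress, 0 of 20 were called in either sex; at an unadjusted p under 0.05 there were 0 higher and 2 lower in females (7.51% of all genes), and 7 higher and 2 lower in males (15.5%). The list median in males was 0.10, against -0.01 over all genes, and in females 0.04, against 0.00. Gnaq, the Gq alpha subunit, differed by 0.03 in males (SE 0.05) and -0.11 in females (SE 0.05). Plcb1, a phospholipase C of neurons, differed by 0.26 in males (SE 0.08, edgeR adjusted p 0.124) and -0.10 in females (SE 0.08). In males the Plcb1 difference was 0.022 with the striatal score, and it was called with the septal (edgeR adjusted p 0.0210) and the astrocyte score (0.0282). Those scores gave 529 and 536 calls over the whole table for stress in males. The smallest p of the list belonged to Arrb2, a beta-arrestin, in males (-0.31, SE 0.07, edgeR adjusted p 0.0806) and to Rgs4, which shortens Gq signals, in females (-0.36, SE 0.13, edgeR adjusted p 0.597) and for the interaction (0.73, SE 0.19, edgeR adjusted p 0.261). The Rgs4 interaction was 0.37 with the striatal score (edgeR adjusted p 0.294) and 0.79, and called, with the astrocyte score (edgeR adjusted p 0.0284). The astrocyte score gave 153 calls over the whole table for the interaction. Arrb2 in males was called under 6 other settings, by DESeq2 with an adjusted p of 0.00956, where 239 genes were called over the whole table. With the striatal score Arrb2 was -0.27 in males (edgeR unadjusted p 0.00357, adjusted p 0.785).

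For sex in controls, 2 of the 20 were called, both lower in males, where 0.331% of all genes were called in that direction. Rgs4 averaged 241 ± 18.8 CPM in males and 368 ± 83.1 CPM in females (-0.60, SE 0.13, edgeR adjusted p 0.0337). Prkca, a protein kinase C, averaged 172 ± 9.76 CPM in males and 205 ± 13.5 CPM in females (-0.25, SE 0.06, edgeR adjusted p 0.0476). Limma-voom gave an adjusted p of 0.0528 for both, and edgeR with DESeq2 size factors 0.0505 for Prkca. The Rgs4 call was lost without any 1 of female control 1, 4 or 5 or male control 1, 2, 3 or 4 (edgeR adjusted p 0.0561 to 0.126). The Prkca call was lost in 15 of the 20 fits without 1 library, all but those without female control 3, female stressed 2 or 5 or male stressed 2 or 3 (edgeR adjusted p up to 0.155, without female control 5). With the striatal score the differences were -0.26 for Rgs4 and -0.15 for Prkca, neither called.

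The third list holds the Vps10p-domain relatives of Sort1 with sortilin's partners, ligands and sorting adaptors, 19 of 20 measured. No gene was called in any of the 6 contrasts. At an unadjusted p under 0.05 there was 1 higher with stress in females (7.51% of all genes), 1 higher and 2 lower with stress in males (15.5%), and 2 higher in males for sex in controls (15.3%). Sorl1, an endosomal sorting receptor, differed by -0.004 with stress in males (SE 0.08) and by -0.01 in females (SE 0.08). Sorcs3, another member of the family, had the smallest p in males (-0.22, SE 0.05, edgeR adjusted p 0.0871), at 74.2 ± 3.31 CPM in control and 63.9 ± 3.49 CPM in stressed males. It was called under 5 other settings, with adjusted p down to 0.0193 (astrocyte score, where 536 genes were called over the whole table). It was -0.24 with the striatal score (edgeR adjusted p 0.785). Ngfr, the p75 neurotrophin receptor that pairs with sortilin, differed by -0.33 in males (SE 0.25) and -0.30 in females (SE 0.25). The Ngfr value in males was -0.083 with the striatal score, -0.50 without male control 1, -0.19 without male control 5 and -0.18 without male stressed 3. In females it was -0.082 with the oligodendrocyte score, -0.19 with the astrocyte score and -0.47 without female stressed 1. Furin, a Golgi convertase, had the smallest p for stress in females (0.13, SE 0.06, edgeR adjusted p 0.617), and the adaptor genes Gga2 for sex in controls (0.17, SE 0.07, edgeR adjusted p 0.274) and Gga1 for the interaction (-0.21, SE 0.08, edgeR adjusted p 0.360).

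The fourth list holds the AP-1, CREB and glucocorticoid receptor genes, whose elements are known from the Nts promoter, and all 10 were measured. None of the 10 was called in the 6 contrasts. With stress in males its median was -0.13, against -0.01 over all genes, and 7 of 10 genes were lower, as were 52.4% of all genes. With stress in females its median was 0.00, and 5 of 10 genes were higher, against 49.5% of all genes. In controls its median for sex was 0.14, against 0.00, and 8 of 10 were higher in males, against 50.1% of all genes. Fos had the smallest p in males (-0.39, SE 0.17, edgeR adjusted p 0.272) and for the interaction (-0.50, SE 0.25, edgeR adjusted p 0.491). Fosl2, a late Fos family gene, had it for sex in controls (0.79, SE 0.20, edgeR adjusted p 0.0631), and Junb for stress in females (0.34, SE 0.18, edgeR adjusted p 0.703; 0.22 without female control 3). Fosl2 was called under 7 other settings; its sex difference in controls was 1.18 with the striatal score (edgeR adjusted p 0.00191) and 1.16 without female control 1 (edgeR adjusted p 0.000632).

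**Figure D5:**
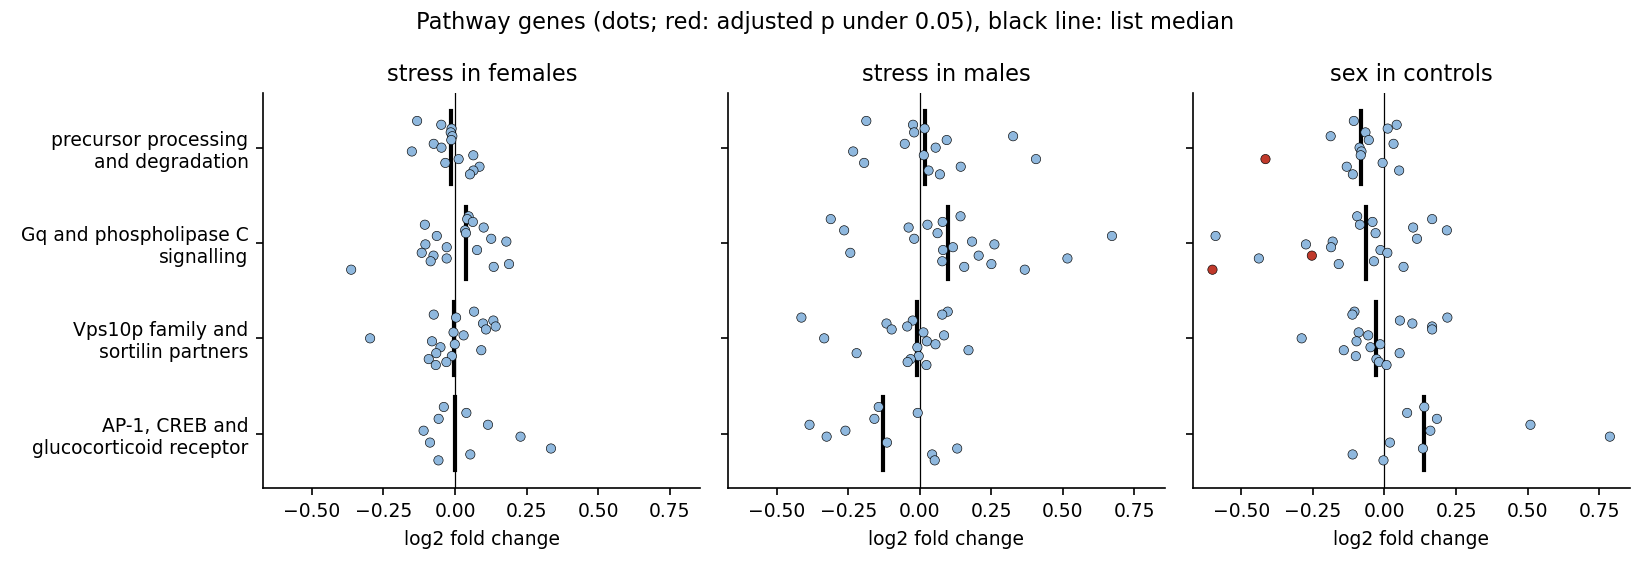
Log2 fold change (horizontal axis) of each measured gene (dots) of the 4 pathway lists (rows) in 3 contrasts (panels); red dots are called and black lines are list medians. The 3 called genes, Pcsk2, Rgs4 and Prkca, are all lower in control males than in control females.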

How the data were processed

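The deposited table holds raw whole-number counts per gene symbol, without normalization. Per the submitters' processing notes, STAR and featureCounts were used with mm10; versions, annotation and strand setting are not given in the sources used here. Per the labels' protocols, a stranded mRNA kit was used. The lowest row total was 1002, and genes with lower totals are not analysed here. All 20 columns were assigned by their labels.

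Tests on these counts used edgeR 4.0.16 (R 4.3.3; TMM; filterByExpr, which kept all 12988 genes; quasi-likelihood test, not robust; 1 mean per group), and in alternatives with DESeq2 1.42.0 and limma 3.58.1. P-values are two-sided. The SE of an edgeR difference is its absolute value divided by the square root of the test's F statistic, and the 95% intervals use it. For some genes this SE and the p-value did not match, such as Nln with stress in females (-0.01, SE 0.06, edgeR unadjusted p 0.989). Log2 CPM used a prior count of 2, and correlations 100000 permutations (scipy 1.17.1). The edgeR test was tried on simulated counts for stress in males, and the other steps were not tried in this way.

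The members and lists were chosen with earlier results of these data known. Genes named beside the members were those called in a list, otherwise the 1 with the smallest p (stress in each sex, sex in controls, interaction); Pcsk1, Pcsk2, Thop1, Nln, Sorl1, Ngfr, Gnaq and Plcb1 whatever their values; and the 3 most like each member. The promoter motifs were chosen after the sequence was seen.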

Additional observations from a re-analysis of the deposited data

Results flagged for a closer look

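Of 28 sets of 5 libraries examined (7 genes, the 4 members and the 3 called pathway genes, in 4 groups), 1 held a library far from the others, where chance gives about 1 in 20. Prkca stood at 155.5 CPM in male control 1, and the gap to the next library was 0.727 of the group's range, above the critical value of 0.710. Without that library the Prkca sex difference in controls was -0.22 (edgeR adjusted p 0.137). No set of the 4 members held such a library.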

How the results depend on the processing

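For the members, 703 of 736 values under other settings kept their direction and their side of the threshold, and no call was lost, since there was none. This count is no measure of stability, since some of these settings could change little. Dropping the filter removed no gene, and leaving out a library outside the groups compared hardly moves their difference. Calls appeared for Nts with stress in males under DESeq2 (-0.41), with only the male groups (-0.40) and with the septal (-0.45) or astrocyte (-0.40) score as a covariate; for Nts in sex in controls with only the control groups (0.36) and with the septal score (0.42); for the Nts interaction with the septal score (-0.68); for Sort1 with the septal score in males (0.21) and in controls (-0.26), and with the astrocyte score in controls (-0.23); and for Ntsr1 with the astrocyte score in controls (0.46). The striatal score turned Ntsr1 (0.088) and Ntsr2 (0.026) with stress in males, their interactions (0.043 and 0.078), and averaged stress for Ntsr1 (0.067) and Sort1 (-0.024). Ntsr2 turned with the astrocyte score in females (0.00483) and controls (0.00485) and with the oligodendrocyte score in females (0.023). The cause was not tested. With 1 library left out, values that changed sign ranged from -0.12 to 0.15 (Ntsr1, stress in females), -0.072 to 0.19 (Ntsr1, sex in stressed mice), -0.0072 to 0.065 (Sort1, sex in stressed mice) and -0.056 to 0.039 (Ntsr2, interaction).

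Among pathway genes, Pcsk2 with stress in females turned with the striatal (-0.0034), septal (-0.033), astrocyte (-0.031) and oligodendrocyte (-0.000316) scores, Pcsk1 with the striatal score in males (0.23) and the oligodendrocyte score in females (0.055), and Sorl1 with the septal score in males (0.013). Ranges with 1 library left out were -0.053 to 0.068 (Pcsk2), -0.037 to 0.027 (Nln), -0.0034 to 0.079 (Thop1) and -0.087 to 0.028 (Sorl1) for stress in females, and -0.048 to 0.034 (Sorl1) for stress in males. Over the whole table, calls went from 1 to 239 (DESeq2), 303 (only the groups compared), 529 (septal), 536 (astrocyte) and 15 (oligodendrocyte) for stress in males, and with 1 library left out from 0 to 232 (without female stressed 2; 129 without male stressed 5); from 97 to 248, 304, 463, 990 and 310 under the same settings, 63 with limma-voom and between 32 and 214 on leaving out female control 5 or 3, the extremes of such fits, for sex in controls; from 10 to 17 (astrocyte) for sex in stressed mice; from 0 to 3 (DESeq2 size factors), 22 (DESeq2), 3 (mean of at least 5 CPM), 1 (striatal), 46 (septal), 153 (astrocyte), 12 (oligodendrocyte) and 0 to 4 with 1 library left out for the interaction; from 0 to 1 (DESeq2) and 2 (striatal) for stress in females; and from 0 to 5 (DESeq2 size factors), 13 (DESeq2), 6 (mean of at least 5 CPM), 7 (septal) and, on leaving out single libraries, 0 to 150 (female stressed 2) for averaged stress. Dropping the filter changed nothing, since it removed no gene.

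Libraries with the same replicate number were not more alike. Of same-numbered pairs, 5 of 30 correlated over 0.1 in their deviations from the group means, with a mean of -0.0845. Of differently numbered pairs 41 of 120 did, with a mean of 0.021, and 0 of 20 libraries correlated best with its own number. Whether equal numbers mark a shared step of handling was not tested. With the replicate block, Nts with stress in males was -0.40 (edgeR adjusted p 0.176), no member was called, and calls for sex in controls went from 97 to 48, with Pcsk2, Rgs4 and Prkca lost (edgeR adjusted p 0.0885, 0.0569 and 0.0885). Female control 4, the shallowest library, gave 26 counts of Ntsr1.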
